A study of Mus musculus with 12 samples.

Results

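Peaks of Rpb2 in coding exons were the subject here, 658 of the 26706 Rpb2 peaks of the deposited table. A peak was taken when the authors' annotation called its centre exonic and placed it more than 2000 bp from the nearest annotated transcription start site. All 658 centres lay within coding exons of RefSeq transcripts on GRCm38 (mm10), so the name of the group held. They fell in 530 genes, of which 528 could be matched to RefSeq by the transcript named in the annotation. That is 2.51% of the 21000 RefSeq protein-coding genes, and the peaks were spread over 20 chromosomes.

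Rpb2 is a core subunit of RNA polymerase II, the enzyme that transcribes protein-coding genes. The polymerase is loaded at the promoter, commonly pauses just downstream, is released into the gene body, and slows again around the polyadenylation site before it leaves the template. ChIP-seq for the enzyme therefore has its sharpest peaks near start sites, and signal over coding exons lies in the part of the gene the polymerase crosses while it elongates. H3K27ac, acetylation of histone H3, marks active promoters and enhancers, some of which lie inside exons of other genes.

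Microglia are the resident macrophages of the brain, and *Cx3cr1* encodes the fractalkine receptor they carry. Microglia were isolated from brains of 2-mo-old C57BL/6J mice. WT mice were *Cx3cr1*+/+, and KO mice were *Cx3cr1* eGFP/eGFP littermates in which both copies of the gene are disrupted by eGFP. Each library came from a pool of 3 mice of 1 sex, so that each genotype had 1 pool labelled female and 1 labelled male, and every comparison of genotypes is n = 2 pools against 2. None of the animals was otherwise treated, and the KO mice lack the receptor in every cell that would use it.

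The Rpb2 libraries held 11662185 to 44332626 reads, of which 11.2% to 15.1% lay in peaks. The KO female pool was the deepest, with 5415932 reads in peaks against 1309593 to 2497192 in the other pools. The library labelled WT female had 136 reads over 3 Y-linked peaks where KO female had 0, so it is called by its label throughout. All 10 microglial marker genes had a promoter peak, with summed levels of 1994 to 2084 CPM (reads scaled to the library's reads in peaks). Markers of monocytes, neutrophils, lymphocytes and neurons had none. Of 6 oligodendrocyte markers, *Cnp* and *Mbp* had promoter peaks, whose summed level was 198 and 147 CPM in the WT pools and 105 and 81.5 CPM in the KO pools. Astrocyte markers had 1 of 6 with 32.4 to 54.6 CPM, and endothelial markers 2 of 6 with 34.2 to 63.8 CPM. The part of these cells in the results below was not tested.

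The sequences of 8 peaks show what kind of DNA was bound. *Srrm2*, *Dhx9*, *Sall1* and *Srgap2* head the genes by number of peaks, and the strongest peak of at most 300 bases is shown for each. The *Cx3cr1*, *C1qa*, *Gfm2* and *Mamdc4* peaks were added after their values were seen, as the disrupted gene, a microglial signature gene, a gene with 3 of the densest peaks and a peak without WT reads. Each is printed 5′ to 3′ on the strand of its gene, from the RefSeq GRCm38 genome, with coding bases in capitals and intron bases in lower case. *Srrm2* is at chr17:23818473-23818740 (plus strand, exon 10 of 14), and *Dhx9* at chr1:153456074-153456307 (minus strand, exon 28 of 28). *Sall1* is at chr8:89032956-89033213 (minus strand, exon 3 of 4), and *Srgap2* at chr1:131298241-131298519 (minus strand, exon 20 of 23). *Cx3cr1* is the central stretch of its peak at chr9:120051286-120051585 (minus strand, exon 2 of 2), and *C1qa* is at chr4:136896546-136896804 (minus strand, exon 3 of 3). *Gfm2* is at chr13:97172437-97172633 (plus strand, exon 17 of 20), and *Mamdc4* at chr2:25564456-25564712 (minus strand, exon 25 of 29).
Srrm2: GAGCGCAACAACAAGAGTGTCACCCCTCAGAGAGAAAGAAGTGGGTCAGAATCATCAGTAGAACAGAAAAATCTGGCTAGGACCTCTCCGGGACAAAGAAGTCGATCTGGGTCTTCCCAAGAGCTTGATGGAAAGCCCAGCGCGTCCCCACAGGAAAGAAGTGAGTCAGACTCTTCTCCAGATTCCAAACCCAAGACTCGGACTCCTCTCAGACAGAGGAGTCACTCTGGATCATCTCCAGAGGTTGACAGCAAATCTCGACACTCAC
Dhx9: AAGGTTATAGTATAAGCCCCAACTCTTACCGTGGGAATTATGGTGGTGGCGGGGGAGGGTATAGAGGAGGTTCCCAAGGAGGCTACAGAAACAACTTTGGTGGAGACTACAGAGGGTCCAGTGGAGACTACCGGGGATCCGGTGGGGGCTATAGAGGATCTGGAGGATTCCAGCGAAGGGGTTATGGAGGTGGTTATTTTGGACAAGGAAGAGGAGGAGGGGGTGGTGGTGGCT
Sall1: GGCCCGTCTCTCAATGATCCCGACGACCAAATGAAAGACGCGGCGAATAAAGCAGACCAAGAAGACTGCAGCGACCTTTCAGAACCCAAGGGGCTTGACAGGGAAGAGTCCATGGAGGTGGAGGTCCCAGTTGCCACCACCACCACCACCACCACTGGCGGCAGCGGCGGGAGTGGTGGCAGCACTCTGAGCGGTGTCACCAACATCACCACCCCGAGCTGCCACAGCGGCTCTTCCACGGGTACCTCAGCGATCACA
Srgap2: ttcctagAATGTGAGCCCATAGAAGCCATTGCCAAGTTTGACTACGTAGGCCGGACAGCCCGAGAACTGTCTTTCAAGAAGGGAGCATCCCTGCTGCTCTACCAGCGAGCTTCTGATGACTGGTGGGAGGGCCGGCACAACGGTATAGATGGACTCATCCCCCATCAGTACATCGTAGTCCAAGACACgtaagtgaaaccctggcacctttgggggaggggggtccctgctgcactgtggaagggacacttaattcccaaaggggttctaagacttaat
Cx3cr1: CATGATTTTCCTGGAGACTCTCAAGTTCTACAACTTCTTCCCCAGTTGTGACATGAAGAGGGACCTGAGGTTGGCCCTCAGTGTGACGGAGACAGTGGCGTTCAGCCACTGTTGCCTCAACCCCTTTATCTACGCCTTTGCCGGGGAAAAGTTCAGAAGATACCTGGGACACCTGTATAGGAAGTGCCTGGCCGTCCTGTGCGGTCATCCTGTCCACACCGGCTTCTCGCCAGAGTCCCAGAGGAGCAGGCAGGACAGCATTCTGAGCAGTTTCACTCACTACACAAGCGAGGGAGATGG
C1qa: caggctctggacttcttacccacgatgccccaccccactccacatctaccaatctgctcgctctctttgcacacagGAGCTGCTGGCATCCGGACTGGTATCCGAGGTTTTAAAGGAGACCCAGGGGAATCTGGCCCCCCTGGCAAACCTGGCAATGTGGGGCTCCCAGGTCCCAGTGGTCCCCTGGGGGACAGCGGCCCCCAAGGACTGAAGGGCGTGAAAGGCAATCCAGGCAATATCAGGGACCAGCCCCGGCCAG
Gfm2: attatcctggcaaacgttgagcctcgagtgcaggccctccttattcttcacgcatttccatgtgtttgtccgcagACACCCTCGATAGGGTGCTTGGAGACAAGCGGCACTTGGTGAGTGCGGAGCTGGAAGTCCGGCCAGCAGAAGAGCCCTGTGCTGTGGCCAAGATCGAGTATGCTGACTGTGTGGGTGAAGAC
Mamdc4: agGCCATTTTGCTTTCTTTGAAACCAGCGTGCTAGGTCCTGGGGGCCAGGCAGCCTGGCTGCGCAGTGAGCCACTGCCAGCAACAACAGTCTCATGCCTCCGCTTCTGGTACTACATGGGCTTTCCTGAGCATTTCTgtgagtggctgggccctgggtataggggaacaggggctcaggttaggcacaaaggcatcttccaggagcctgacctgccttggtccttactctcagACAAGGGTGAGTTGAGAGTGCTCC
*Srrm2*, *Dhx9*, *Sall1* and *Cx3cr1* are coding throughout, since the peak sits inside 1 long exon, whereas *Srgap2*, *C1qa*, *Gfm2* and *Mamdc4* run over exon ends into introns. The *Cx3cr1* stretch holds positions 750 to 1049 of a coding sequence of 1065 bases, near its 3′ end.

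The peaks were narrow. Their median width was 287 bp, from 197 to 668 bp, and a median of 63.4% of that width was coding. Only 164 (24.9%) were coding from end to end. The acceptor end of the exon was covered by 386 peaks and the donor end by 329. Both ends were covered by 255 peaks and neither end by 198, and 211 peaks lay in exons longer than 1000 bp. The exon that held a peak had a median length of 264 bp, against 207 bp for coding bases drawn evenly from the same transcripts.

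Most peaks lay late in their genes. The median place was 78.7% of the gene's length from its start, with quartiles of 60.9% and 91.5%. Coding bases of the same transcripts beyond 2000 bp had a median place of 71.6%, and Rpb2 peaks in introns one of 53.1%. The last 10% of gene length held 190 peaks, or 29.0%, against 21.5% of coding bases and 10.9% of intron peaks. The last exon of its transcript held 193 peaks, 29.3% against 15.4% of coding bases. The 3′ end of the host gene was within 5000 bp for 363 peaks, at a median distance of 3924 bp over all peaks.

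**Figure D1:**
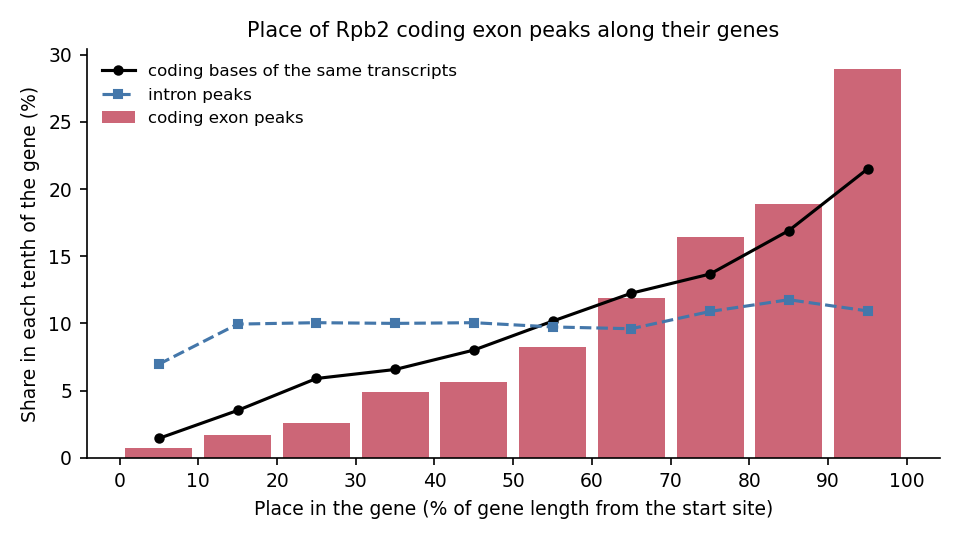
Place along the gene, in steps of 10% of gene length from the start site (x axis), against the share of each set in that step in % (y axis). Bars are the coding exon peaks with a matched gene, the solid line coding bases of the same transcripts beyond 2000 bp and the dashed line intron peaks. The bars reach 29.0% in the last step, where the coding bases reach 21.5% and the intron peaks 10.9%.

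Some of the peaks lay just behind the end of a neighbouring gene. For 152 peaks (23.1%) the centre was within 5000 bp past the 3′ end of another protein-coding gene, in the direction of that gene's transcription. Coding bases of the same transcripts were so placed in 12.7% of cases, intron peaks in 7.40%, and peaks at gene ends in 25.9%. In 116 of the 152, the neighbour had a promoter peak of its own. The host gene itself had a promoter peak for 496 of the 658 peaks (75.4%), against 83.0% for intron peaks. Rpb2 reads carry no strand, so reads of the host and of such a neighbour cannot be told apart.

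The density of a peak is given as CPM per kb of peak, averaged over the 4 libraries. The highest, 869 CPM per kb, was in exon 20 of *Hmgxb3*, and its centre lay 1172 bp past the end of *Csf1r*, the receptor that microglia need to survive. It had 318, 275, 319 and 264 CPM in the library labelled WT female, WT male, KO female and KO male, an order used for all values below. The peak was high in every pool and the genotypes overlapped. *Gfm2*, a mitochondrial translation factor, had 3 peaks of 622, 585 and 553 CPM per kb in exons 18, 17 and 16. The peak of *Phospho1*, a phosphatase of mineralizing cells, reached 768 CPM per kb and lay within *Abi3*, a regulator of actin. *Rin2* (557), *Notch4* (538), *Mafg* (490), *Jund* (482) and *Carns1* (442 CPM per kb) completed the 10 densest. *Jund*, an AP-1 transcription factor, has a single exon, and its peak varied from 108 CPM in KO female to 182 CPM in KO male.

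Coding exon peaks had densities near those of intron and gene end peaks and far below those of promoter peaks. Their median density was 49.6, 51.6, 55.9 and 57.9 CPM per kb in the 4 libraries. Intron peaks had 52.1, 50.5, 56.5 and 58.9, and the mean log2 difference was −0.02 ± 0.04 (SD, n = 4 libraries, exact two-sided sign-flip test, p = 0.5). Against peaks at gene ends it was −0.09 ± 0.07 (exact p = 0.25). Promoter peaks had 166.6, 171.2, 152.0 and 148.0 CPM per kb, and coding exon peaks were lower in 4 of 4 libraries by 1.57 ± 0.20 on the log2 scale. Against intergenic peaks they were lower in 4 of 4 libraries too, with 0.718-fold the density. The exact p was 0.13 for both, the smallest that 4 libraries allow.

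**Figure D2:**
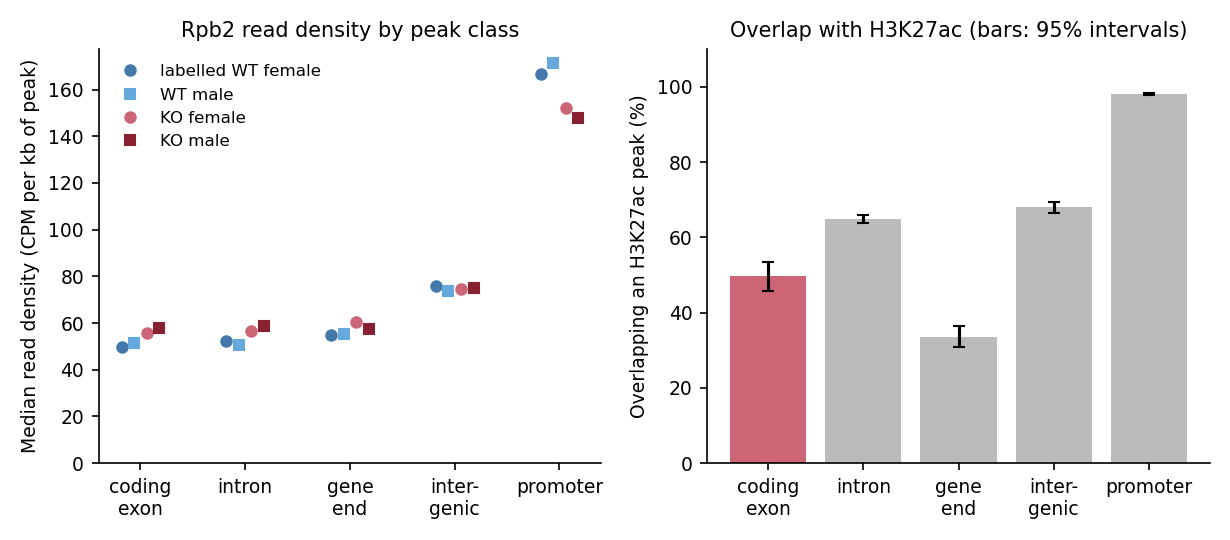
Left, median Rpb2 read density per peak class in CPM per kb of peak, 1 point per library. Right, percent of the peaks in each class that overlap an H3K27ac peak, with exact 95% binomial intervals. Coding exon peaks lie at 49.6 to 57.9 CPM per kb beside 148.0 to 171.2 for promoters, and 49.7% of them overlap H3K27ac.

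Within a gene the promoter peak was usually the denser. Of 7882 genes with a promoter peak, 384 (4.87%) also had a coding exon peak. Over these 384 the median log2 ratio of exon to promoter density was −2.60 and −2.71 in the WT pools and −2.25 and −2.33 in the KO pools. The promoter was thus 5.55-fold denser in the median gene. KO exceeded WT by 0.36 on the log2 scale without overlap, and the exact permutation test gave p = 0.333, the smallest that 2 against 2 allows. Peaks had been called per genotype, and 61.2% of coding exon peaks were called in KO alone, against 35.9% of promoter peaks. With only peaks called in both genotypes the difference was 0.19 over 54 genes. The part of this selection in the difference was not tested. In 39 genes the exon peak was the denser on average. The highest ratios were those of *Prdm2* (log2 3.06), *Kdm6b* (2.83), *Atn1* (2.78), *Notch4* (2.43) and *Ptpn18* (1.87). *Prdm2* encodes a histone methyltransferase and *Kdm6b* a histone demethylase. The *Prdm2* exon peak had 365, 735, 240 and 297 CPM per kb beside 103, 90.3, 18.0 and 23.6 at its promoter, higher in the exon in 4 of 4 libraries. The *Kdm6b* ratio was far less even, from 6.91 in WT male to −0.09 in KO male. At the other end stood *Mlxip* (−6.70), *Itgam* (−6.42), *Dock2* (−6.38), *Hnrnpa2b1* (−6.34) and *Pnrc1* (−6.31), each of which had an exon peak with 0 reads in at least 1 library.

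**Figure D3:**
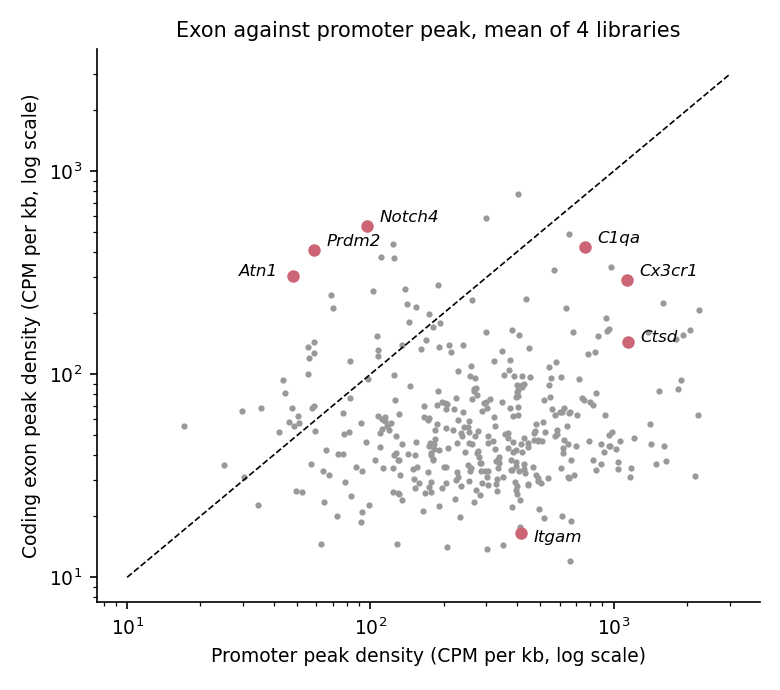
Promoter peak density (x axis) against coding exon peak density (y axis) for 384 genes, in CPM per kb on log axes, each a mean of the 4 libraries, and the dashed line marks equality. Most genes lie below the line, 39 had a mean log2 ratio above 0, and *Prdm2*, *Atn1* and *Notch4* lie far above the line.

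Most genes had 1 coding exon peak, and a few had many. There were 441 genes with 1 peak, 65 with 2, 15 with 3, 7 with 4, 1 with 6 and 1 with 8. *Srrm2*, a scaffold protein of the spliceosome and of nuclear speckles, had 8, of which 7 lay in exon 10, itself 6569 bp long. Summed over its peaks, *Srrm2* had 132, 142, 119 and 93.6 CPM. *Dhx9*, an RNA helicase, had 6 peaks in exons 10, 18, 23, 27 and 28, with 53.7, 70.4, 79.1 and 83.5 CPM in sum. *Sall1*, a zinc finger transcription factor of microglial identity, had 4 with 102, 145, 115 and 106 CPM in sum. The other genes with 4 were *Srgap2* (a regulator of the actin cytoskeleton), *Tcirg1* (a subunit of the lysosomal proton pump), *Sipa1* (a Rap GTPase-activating protein), *Stab1* (a scavenger receptor), *Zfhx3* (a homeobox factor) and *Lrp1* (an endocytic receptor). *Gfm2*, *Sgk1* and *Med12l* led the genes with 3. *Med12l*, a Mediator subunit, holds *P2ry12*, the purinergic receptor of microglial processes, inside its gene, and 2 of its 3 peaks lay within *P2ry12* as well. Of the 89 genes with 2 or more peaks, 40 had peaks whose fitted KO/WT ratios had opposite signs. Within *Srrm2* these ratios ran from −2.42 to 2.99 on the log2 scale, and none of its 8 peaks passed the threshold.

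The comparison of KO with WT asked whether loss of the receptor altered polymerase binding. No coding exon peak differed between genotypes at an adjusted p of 0.05 (edgeR quasi-likelihood test, Benjamini-Hochberg over all 26706 peaks). Over all peaks 2 were called, 0.00749%, and neither was a coding exon peak. The lowest adjusted p among coding exon peaks was 0.198. At an unadjusted p under 0.05, 61 were higher in KO and 30 lower, 9.27% and 4.56% of the 658, beside 6.12% and 6.06% of all peaks. Of 8012 intron peaks 775 were higher and 369 lower, and of 1117 gene end peaks 103 and 50. The KO pools lay wholly above the WT pools at 220 coding exon peaks (33.4%, against 25.7% of all peaks) and wholly below at 132 (20.1%, against 21.7%). These shares were 34.8% and 17.5% for intron peaks, and 32.7% and 19.1% for gene end peaks. The median log2 KO/WT ratio of coding exon peaks was 0.20, beside 0.04 for all peaks, 0.28 for intron peaks, 0.18 for gene end peaks and −0.11 for promoter peaks. Scaling by library totals in place of reads in peaks moved the median of all peaks to 0.37 and that of coding exon peaks to 0.52, so that coding exon peaks exceeded all peaks by 0.16 under both. In a fit of peaks beyond 2000 bp alone, both medians were 0.08.

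Calls appeared under other tools and smaller sets. DESeq2 called 28 coding exon peaks (17 higher in KO, 11 lower) and the edgeR likelihood ratio test 30 (22 higher, 8 lower), 4.26% and 4.56% of them beside 3.83% and 3.46% of all peaks. Without the library labelled WT female 75 were called (11.4%, beside 8.28% of all peaks) and without WT male 76 (11.6%, beside 7.35%). Without KO female or without KO male 0 were called, beside 0 and 2 of all peaks.

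Coding exon peaks took 1.51% and 1.56% of the reads in peaks in the WT pools, and 1.64% in both KO pools. The difference of 0.11 percentage points exceeded the spread between pools, with an exact permutation p of 0.333. It was 0.038 among peaks of both lists and 0.051 as a percent of all library reads. Intron peaks also took more in KO, 18.9% ± 0.21 against 17.0% ± 0.33 (SD, n = 2 pools each).

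The sign of a difference followed the list in which the peak had been found. The authors called peaks per genotype and merged the lists, and 403 coding exon peaks (61.2%) came from the KO list alone, 126 (19.1%) from the WT list alone and 129 (19.6%) from both. For all Rpb2 peaks these shares were 53.0%, 13.7% and 33.3%. For intron peaks they were 67.2%, 16.6% and 16.3%, and for gene end peaks 62.0%, 22.8% and 15.1%. Among coding exon peaks the median log2 KO/WT ratio was 0.69 in the KO list, −0.91 in the WT list and −0.12 in both lists. The fitted ratio was above 0 for 329 of the 403 KO list peaks and below 0 for 114 of the 126 WT list peaks. All 61 peaks with a low unadjusted p that were higher in KO came from the KO list, and 26 of the 30 lower ones from the WT list. Since the lists were drawn from the same reads, these values describe the peak set and test nothing. The KO female pool was also the deepest library, and the part of depth in the larger KO list was not tested. Peaks of both lists were denser, with a median of 116 CPM per kb beside 43.8 in the KO list and 57.7 in the WT list.

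**Figure D4:**
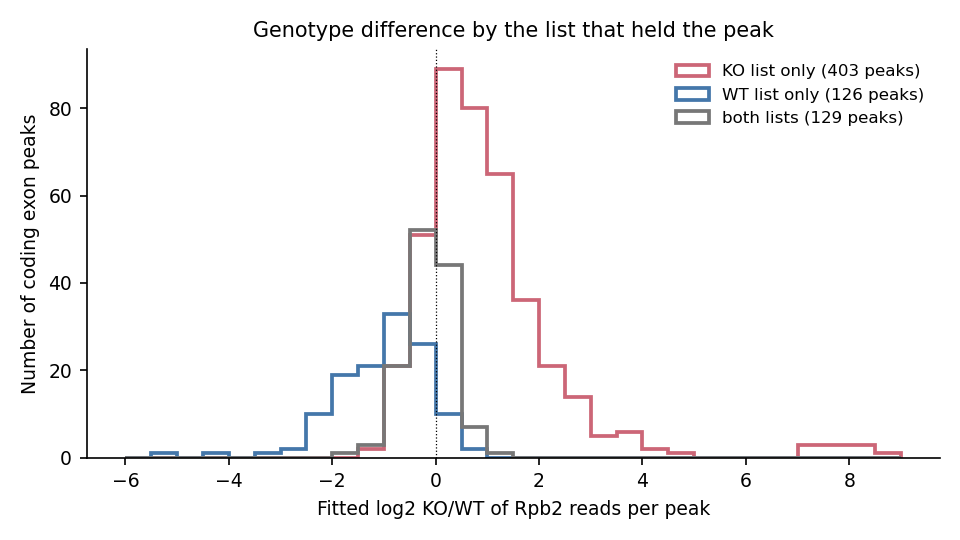
Fitted log2 KO/WT ratio per coding exon peak (x axis) against the number of peaks (y axis), separately for peaks found in the KO list only, the WT list only or both lists. KO list peaks centre at 0.69, WT list peaks at −0.91 and peaks of both lists at −0.12. The small group beyond 7 consists of the 10 peaks with 0 reads in both WT pools, where the fitted ratio depends on the prior count.

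The 10 peaks with the lowest p that were higher in KO were mostly peaks with hardly any WT reads. In all, 10 coding exon peaks had 0 reads in both WT pools, 1.52% beside 0.756% of all peaks, and none had 0 in both KO pools. The share was 1.45% for intron peaks and 1.43% for gene end peaks. All 10 coding exon peaks without WT reads came from the KO list alone, the genotype in which they are high. They had 35 to 77 reads in KO female and 21 to 59 in KO male, so that KO was at least 6.49-fold to at least 14.6-fold higher, taking 3 reads over both WT pools as the floor. *Mamdc4*, an endosomal membrane glycoprotein, had 0, 0, 67 and 59 reads in exon 25, at least 14.6-fold higher in KO (adjusted p = 0.198). Its peak lay 2500 bp past the end of *Edf1*, a transcriptional coactivator. *Ccr9*, the receptor of the chemokine CCL25, had 0, 0, 77 and 38 reads in its last exon, at least 13.3-fold higher (adjusted p = 0.198). *Ccr9* lies within 10 Mb of *Cx3cr1*, as do 4 coding exon peaks in all. *Prrc2c*, *Gbf1*, *Arid3b*, *Iars2* and *Dazap2* also had 0 WT reads, with 46 to 66 reads in KO female and 31 to 34 in KO male. In the other 3 of these 10 peaks, WT reads were present. *Ehmt2*, a methyltransferase of histone H3, had 1.56, 1.32, 27.1 and 21.1 CPM (log2 ratio 4.03 ± 0.87 SE, adjusted p = 0.198). *Msh6*, a mismatch repair protein, had 5.44, 4.61, 30.5 and 32.4 CPM (2.64 ± 0.65, adjusted p = 0.198). *Sipa1* had 1.56, 2.63, 16.7 and 25.4 CPM in exon 11 (3.28 ± 0.88, adjusted p = 0.200). The other *Sipa1* peaks, in exons 4, 5 and 9, were fitted lower in KO, at −1.34, −0.43 and −0.18. The genotypes did not overlap at any of the 10, which was part of the rule that chose them.

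The peaks with the lowest p that were lower in KO kept some reads in both genotypes, apart from *Lrch4* and *Dock2*, where KO female had 0. *Lrch4* had 19.4, 15.8, 0 and 1.17 CPM in exon 7 (−5.15 ± 1.31, adjusted p = 0.198). *Cacna1a*, the pore subunit of a neuronal calcium channel, had 43.5, 51.4, 13.3 and 13.7 CPM in its last exon (−1.82 ± 0.49, adjusted p = 0.200). *Chadl*, an extracellular matrix protein, had 40.4, 39.5, 11.8 and 6.63 CPM (−2.09 ± 0.57, adjusted p = 0.204). *Zfp771*, a zinc finger gene, had 106, 83.6, 36.2 and 47.6 CPM (−1.18 ± 0.33, adjusted p = 0.213), and its other peak in the same exon 48.2, 70.4, 37.3 and 39.0 CPM. *Arid1a*, a subunit of the BAF chromatin remodeler, had 17.9, 22.4, 2.36 and 3.51 CPM in its last exon (−2.78 ± 0.85, adjusted p = 0.241). The other *Arid1a* peak, in exon 16, had 0, 9.88, 8.18 and 11.7 CPM (0.96), and there the genotypes overlapped. *Dock2*, an activator of Rac in leukocytes, had 20.2, 6.58, 0 and 1.56 CPM. A peak of *Srrm2* in exon 10, *Ica1l*, *Prdm2* and *Hlx* completed the 10, with adjusted p from 0.211 to 0.265.

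**Figure D5:**
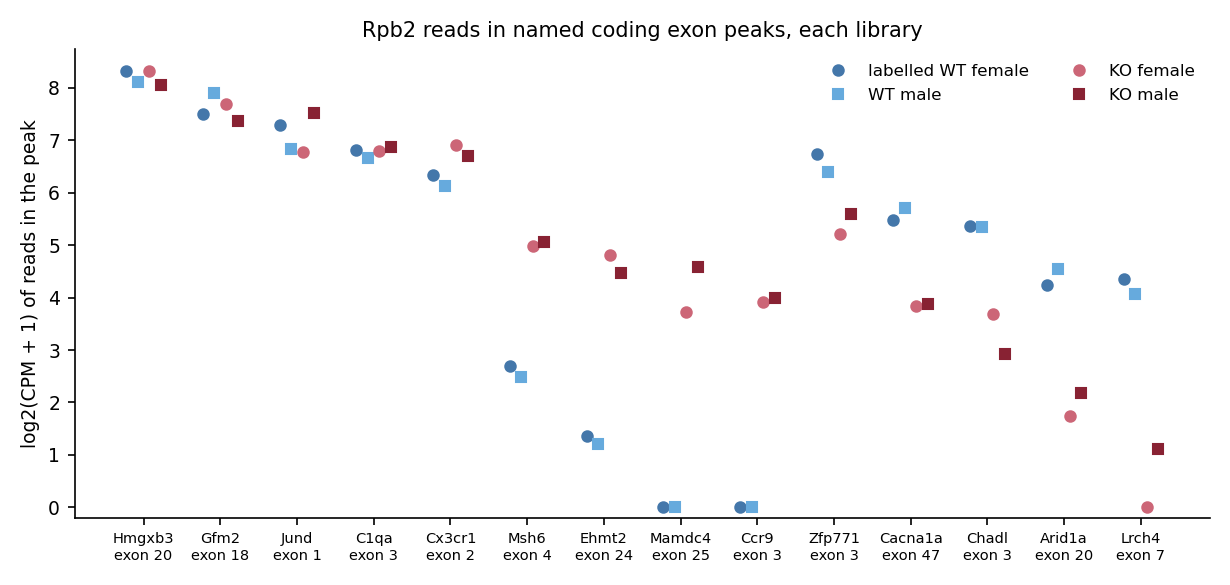
Rpb2 reads in 14 named coding exon peaks, as log2(CPM + 1) on the y axis, 1 point per library, blue for WT and red for KO, circles for pools labelled female and squares for male. The 5 peaks on the left have high levels in all pools, the next 4 have few or no WT reads, and the last 5 lie lower in both KO pools.

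*Cx3cr1* itself had 1 coding exon peak, at chr9:120051276-120051594 in exon 2, the exon that carries the coding sequence. It had 103 and 105 reads in the WT pools and 659 and 264 in the KO pools, or 80.1, 69.1, 119.8 and 103 CPM. The KO pools were both above the WT pools, by 0.58 ± 0.28 (SE) on the log2 scale, with an adjusted p of 0.424. The peak had been found in the WT list alone, 1 of 12 WT list peaks whose fitted ratio was above 0. Beside the promoter of the gene its density was −2.24 and −2.54 on the log2 scale in WT and −1.53 and −1.64 in KO. What remains of this exon beside eGFP in the KO allele was not analysed here, and reads from eGFP itself have no place in the mouse genome.

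Genes of the homeostatic microglial signature often had a coding exon peak. Of 38 such genes 18 (47.4%) had one, 26 peaks in all, beside 2.51% of all coding genes, and among genes with a promoter peak the shares were 48.6% and 4.87%. The lists were chosen with results of these data known, and the counts describe them without a test. None of the 26 passed the threshold. At an unadjusted p under 0.05, 2 were higher and 3 lower in KO, beside 6.12% and 6.06% of all peaks. Their median log2 ratio was −0.04, beside 0.20 for all coding exon peaks. *C1qa*, a chain of complement C1q, had 112, 100.1, 110.6 and 116 CPM in its last exon, and the genotypes overlapped. Its partners *C1qb* and *C1qc* had 61.4, 56.0, 35.6 and 16.0 CPM and 56.0, 50.03, 25.3 and 24.96 CPM in their last exons, lower in both KO pools (adjusted p = 0.343 and 0.335). *C1qb* had 2 coding exon peaks, of which only 1 is given here. *Csf1r* had 84.8, 118, 74.9 and 77.2 CPM in exon 13. *Selplg*, the P-selectin ligand, had 106, 125, 76.4 and 79.2 CPM in exon 2. *P2ry12* had 77.0, 76.4, 66.5 and 65.9 CPM in its last exon, which lies within *Med12l*. *Trem2*, a lipid-sensing receptor, had 17.1, 42.8, 16.5 and 17.2 CPM, where WT male alone stood out. *Tgfbr1*, the receptor kinase for TGF-β, had 3 peaks, of which exon 5 was lower (−2.11 ± 0.82) and exons 6 and 8 were higher in KO (1.04 ± 0.71 and 1.43 ± 0.58), with adjusted p of 0.334 to 0.577. *Itgam*, the CD11b integrin, was among the peaks without WT reads, with 42 and 22 in KO.

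Other gene groups followed at lower shares. Adhesion and cytoskeleton genes had a coding exon peak in 13 of 32 (40.6%), among them *Actb* for β-actin (54.4, 69.1, 54.9 and 58.9 CPM) and *Coro1a*, an actin regulator (8.55, 4.61, 26.4 and 18.3 CPM in exon 3). The other *Coro1a* peak, in exon 6, had 30.3, 19.1, 50.4 and 24.6 CPM, and there the genotypes overlapped. At an unadjusted p under 0.05, 2 of the 16 adhesion and cytoskeleton peaks were higher in KO and 1 was lower. Their median log2 ratio was 0.77, beside 0.20 for all coding exon peaks. Over all peaks 6.12% were higher and 6.06% lower at that p, to be set beside the few peaks of each list below as well. Transcription and chromatin machinery had 5 of 30 genes with 9 peaks, 2 higher and 1 lower, including *Ep300*, an acetyltransferase, with 3 peaks in exon 31. Of its peaks 1 had 4.67, 5.27, 18.0 and 19.9 CPM (1.92, adjusted p = 0.346). At the other *Ep300* peaks the genotypes overlapped. RNA processing genes had 4 of 32 with 13 peaks, 1 higher and 2 lower, led by *Srrm2* and by *Son*, which has a similar role in nuclear speckles. Lysosome genes had 4 of 39 with 10 peaks and no low p, and the protease *Ctsd* had 33.4, 40.8, 47.3 and 79.2 CPM in exon 2. The other *Ctsd* peak, in exon 7, had 36.5, 48.1, 47.6 and 49.1 CPM, and there the genotypes overlapped. Chaperones had 2 of 13, with *Hspa5* of the endoplasmic reticulum at 35.0, 11.2, 4.91 and 3.51 CPM (−2.42, adjusted p = 0.280). Translation had 2 of 17, antigen presentation 2 of 16, immediate-early genes 2 of 27 and glycolysis 0 of 12, none with a low p. Genes whose symbols start with Zfp, Zkscan or Zscan and a number had 22 of 422 (5.21%) with 31 peaks, 1 higher and 2 lower. Many are C2H2 zinc finger genes, whose zinc fingers often share 1 long last exon, but the symbol alone chose them. *Zfp36l1* stands in the RNA processing list as well. No peak of any of these lists passed the threshold.

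H3K27ac peaks were overlapped by 327 of the 658 coding exon peaks, 49.7% (exact 95% interval 45.8% to 53.6%). The share was 64.8% for intron peaks (63.7% to 65.8%), 33.7% for peaks at gene ends (30.9% to 36.5%) and 98.2% for promoter peaks. Among peaks of both lists it was 77.5%, among KO list peaks 43.7% and among WT list peaks 40.5%. Among peaks within 5000 bp past another gene's end it was 33.6%, and elsewhere 54.5%. Peaks overlapping H3K27ac had a median of 81.4 CPM per kb and a median log2 KO/WT ratio of 0.05. Those outside had 40.8 CPM per kb and 0.44.

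The 296 H3K27ac peaks that overlapped a coding exon peak were broad, with a median width of 3237 bp beside 667 bp for all H3K27ac peaks. None differed between genotypes (edgeR quasi-likelihood test, lowest adjusted p = 0.643), beside 13 of the 55798 H3K27ac peaks tested, 0.0233%. At an unadjusted p under 0.05, 7 were higher and 6 lower in KO, beside 1.35% and 3.6% of all H3K27ac peaks, and DESeq2 called 1, beside 0.43%. The median log2 KO/WT ratio of the 296 was 0.14, beside −0.21 for all H3K27ac peaks. The H3K27ac peak over *Cx3cr1* had a log2 ratio of −0.43 (adjusted p = 0.889). The H3K27ac library of WT female held 15.9% of its reads in peaks, against 61.1% to 65.3% in the other H3K27ac libraries, and without it 3 of the 296 were called (1.01%, beside 0.907% of all H3K27ac peaks). Without WT male 88 were called (29.7%, beside 14.6%).

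Coding exon peaks were richer in GC than intron peaks and poorer than promoter peaks. In a window of 200 bp at the centre, the median GC content was 56.5%, beside 49.5% for intron and gene end peaks and 65.0% for promoter peaks. The PU.1 motif GAGGAAG, of the factor that directs microglial enhancers, was found on either strand in 16.1% of coding exon peaks, 13.6% of intron peaks and 13.3% of all peaks. GGGCGG, the SP/KLF motif of promoters, was in 10.5%, beside 4.82% of intron peaks and 47.3% of promoter peaks. AP-1 letters (TGAGTCA or TGACTCA) were in 3.65% and CACGTG, the E-box, in 4.56%, close to the 3.18% and 4.54% of all peaks. CCAAT was in 18.2%, beside 19.4% of all peaks. No motif contains another, and the 2 AP-1 forms are each other's reverse complement.

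Just beyond the distance of 2000 bp, and so among the coding exon peaks, lay those of *Tmem86b* (2031 bp from a start site), *Gdf15* (2036 bp) and *Irf5* (2047 bp). They had 75.8, 95.2 and 72.8 CPM per kb. Just short of that distance, and so left out, lay exon peaks of *Lefty1* (1996 bp), *Nfic* (−1974 bp, upstream of the start site) and *Lsr* (−1970 bp). These had 126, 106 and 63.8 CPM per kb.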

How the data were processed

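The authors aligned 51-nt single-end reads to mm10 with Bowtie2, called peaks with HOMER within each genotype, retained those that both pools supported, and merged the genotypes' lists. Per the file headers, the deposited tables hold raw counts of reads for each peak and library. The counts were tested here with edgeR 4.0.16 in R 4.3.3 (glmQLFit, glmQLFTest, TMM factors, genotype alone), over peaks averaging 4 reads or more in WT or KO. All 658 coding exon peaks passed. CPM are counts scaled by these factors, and exon/promoter ratios used a prior of 1 read per kb. The deposited peak score was not used. DESeq2 1.42.0 was the alternative tool. Floors and intervals cover counting error only.

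The exon's gene came from the annotated RefSeq transcript, not from the nearest start site, which belonged to another gene in 279 of 658 peaks. Chromosome lengths matched GRCm38. Named peaks were every *Cx3cr1* peak, the 12 genes with most peaks, the 10 densest, the 10 lowest p in each direction without overlap, up to 4 genes per list, the 5 highest and 5 lowest exon/promoter ratios and 3 peaks on each side of 2000 bp. Other microglial genes were named after their values were seen. Pools of 1 sex are different animals. The edgeR p-values rest on the spread between the 2 pools of a genotype, estimated with information shared over all tested peaks. The 2 pools of a genotype also differ in sex label. The members and lists were chosen with earlier results of these data known. The 4 input samples were not used here. Some single-gene results are not reported here.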

Additional observations from a re-analysis of the deposited data

Results flagged for a closer look

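In 6 of the 10 densest peaks, the female pools and the male pools gave KO/WT ratios of opposite sign. With 1 pool per sex and genotype the difference was not tested. For *Notch4* exon 30 the log2 ratio was 0.21 in the pools labelled female and −1.42 in the male pools. For *Jund* it was −0.52 and 0.68, for *Gfm2* exon 18 it was 0.18 and −0.55, and for *Rin2* exon 9 it was −0.10 and 0.38. For *Carns1* exon 9 the ratios were 0.19 and −0.024, and for *Hmgxb3* exon 20 they were 0.0034 and −0.058. The female ratio rests on the library labelled WT female, whose Y-linked reads go against its label.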

How the results depend on the processing

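The count of 0 coding exon peaks called became 28 with DESeq2, 30 with the likelihood ratio test and 0 to 76 when 1 pool was left out, beside 3.83%, 3.46% and 0% to 8.28% of all peaks. The lone pool is then assumed to vary like the other genotype. It stayed 0 under the other scalings and filters, in peaks beyond 2000 bp, in both lists and with the replicate block. Peaks at an unadjusted p under 0.05 numbered 98 higher and 12 lower in KO with library totals, 19 higher with at least 10 reads in every library (409 of 658 tested), 4 higher and 4 lower in both lists, and 30 higher with the replicate block, against 61 and 30. Without 1 pool they ranged from 11 to 119 higher and from 23 to 51 lower. The median log2 ratio of 0.20 became 0.26 with total reads in peaks, 0.52 with library totals, 0.049 with at least 10 reads, 0.078 beyond 2000 bp and 0.053 in both lists. Restricting both sides to peaks of both lists took the difference in share of reads from 0.11 to 0.038 percentage points, and dividing by library reads to 0.051. The same restriction took the exon/promoter difference to 0.19 and the density against promoters to −1.08. Against introns it became −0.083, and against gene ends it reversed to 0.17. H3K27ac overlap was 42.6% with H3K27ac peaks of both lists. For H3K27ac reads, DESeq2 called 1 peak with a median of 0.076, at least 10 reads gave 0.083, and leaving out 1 pool gave 0 to 88 calls (0.00358% to 14.6% of all H3K27ac peaks) and medians of −0.023 to 0.26, against 0.14. The negative one, without WT female, stood beside 0.0020 for all H3K27ac peaks, and the highest, without WT male, beside −0.26. The cause of these shifts was not tested. The fitted ratios of 27 peaks kept their sign in all 335 alternative values. These peaks were *Cx3cr1*, the 10 lowest p in each direction, and the printed ones of *Tgfbr1*, *Ep300*, *Hspa5* and *Srrm2*. The 10 in each direction had been chosen from these same counts among peaks whose pools did not overlap between genotypes. Their kept sign follows largely from that choice and tests nothing. Some of the 27 passed the threshold under DESeq2 or the likelihood ratio test. Pools with the same sex label did not deviate together (correlation −0.0072 over all peaks). The library labelled WT female had Y-linked reads, so this correlation cannot show whether sex had a shared effect. The replicate block is given here only, with 0 calls in coding exon peaks and 4 over all peaks, against 2. At 2 pools per genotype the smallest exact p is 0.333.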
